A study of Harpegnathos saltator with 27 samples.

Results

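LOC105188598 is the row of the read counts that the study uses as nompC, its marker of mechanosensory neurons, and it is described here across pupal development of the ant Harpegnathos saltator. It was taken by its gene ID, 1 of 14407 rows counted, and its values played no part in that choice. RNA was sequenced from whole antennae of WT pupae and of orco mutant pupae, which carry a mutation in the gene of the odorant receptor co-receptor, at 4 stages, D10, D15, D20, and D25, where the number is the age in days since the pupa formed. The groups were WT D10 with 3 libraries, WT D15, D20, and D25 with 4 each, and mutant D10, D15, D20, and D25 with 3 each, for 27 libraries in 8 groups. The labels give no treatment, and they do not say how many animals a library holds or whether libraries of a group came from separate animals, so the p-values measure the spread between libraries.

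In Drosophila, nompC encodes a channel of the transient receptor potential (TRP) family that sits near the tip of the sensory cilium and opens when the cilium is deformed. It serves mechanosensory bristles, campaniform sensilla, and chordotonal organs, such as the hearing and gravity organ at the base of the antenna. Orco belongs to another sense: in olfactory receptor neurons it pairs with a tuning odorant receptor (Or) to form the channel that detects odors.

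The RefSeq gene table for this assembly (Hsal_v8.6) gives LOC105188598 no symbol. The table places LOC105188598 at 96788 to 99206, a span of 2419 bp with 1 transcript, on a chromosome listed as unknown. It gives the symbol nompC to LOC105188586, at 103495 to 119467 with 2 transcripts. Between these lies LOC112589396, at 99112 to 103496, which overlaps LOC105188598 by 95 bp and LOC105188586 by 2 bp. All 3 rows are in the counts, which rest on gene models of the authors that may differ from RefSeq's, and whether the rows are parts of a single gene was not tested. LOC105188598 is therefore called by its ID, and the adjoining rows are given beside it. On the other side of LOC105188598 lies LOC105188588, at 95136 to 96720, which has no symbol either.

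Libraries held 3454610 to 52275933 counts on genes, and the shallowest were in the mutant D10 group. The targeted gene HsOrco itself was lower in mutants at D25, with a log2 fold change of −3.42 (SE 0.51, edgeR quasi-likelihood test with Benjamini-Hochberg adjustment, adjusted p = 0.000121). At D10, D15, and D20 the log2 fold change was 1.12, 1.10, and −1.38, and it was not called. DESeq2's test called the D20 difference (−1.34, adjusted p = 0.0478), as did edgeR with sequencing batch as a term (−1.63, adjusted p = 0.0364). No other alternative fit did. From D15 to D20, edgeR called HsOrco lower in mutants (−4.25) and in WT (−1.77). The difference between these steps, −2.48, was called too. The study reported that orco mRNA fell in mutants after D15 and that olfactory receptor neurons died from D16. All mutant D25 libraries came from sequencing batch 3, which held only 1 of the WT D25 libraries, so that at this stage genotype and batch are largely the same split. All D10 libraries of batch 2 were mutant.

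LOC105188598 was sparsely covered. It took 5 to 262 counts per library, 1450 in all, with a mean of 53.7. Its spread between replicates beyond counting error, as a biological coefficient of variation, was 0.447, against a median of 0.306 over all 11086 genes tested. Reads fell on either strand in near equal numbers, 703 and 756, or 48.2% on the first (95% exact binomial interval, 45.6 to 50.8%). These counts therefore cannot separate the gene from a transcript on the opposite strand.

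Group means of LOC105188598 were highest at the first stage in WT antennae and at the last in mutant antennae, although no contrast between groups passed the edgeR test. As normalized counts, which are raw counts divided by the DESeq2 size factor of the library, WT D10 libraries had 67.5, 46.7, and 64.6. WT D15 libraries had 19.8, 25.0, 21.8, and 46.1. WT D20 libraries had 7.08, 37.6, 18.5, and 13.6, and WT D25 libraries had 35.6, 23.1, 27.6, and 21.1. In WT, every D10 library was thus above every later library, although the lowest D10 value and the highest D15 value were close. The lowest value, in WT D20 replicate 1, rested on 5 counts, with an exact 95% Poisson interval of 1.62 to 11.7 that covers counting error only.

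Mutant D10 libraries had normalized counts of 70.8, 33.8, and 23.3, and mutant D15 libraries had 30.4, 86.7, and 55.9. Mutant D20 libraries had 41.2, 15.7, and 18.6, and mutant D25 libraries had 53.7, 49.0, and 103. Among mutant libraries, D15 values reached above and D20 values below those at D10, and these groups overlapped. Mutant D25 was the only stage at which every mutant library was above every WT library of the same age.

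**Figure D1:**
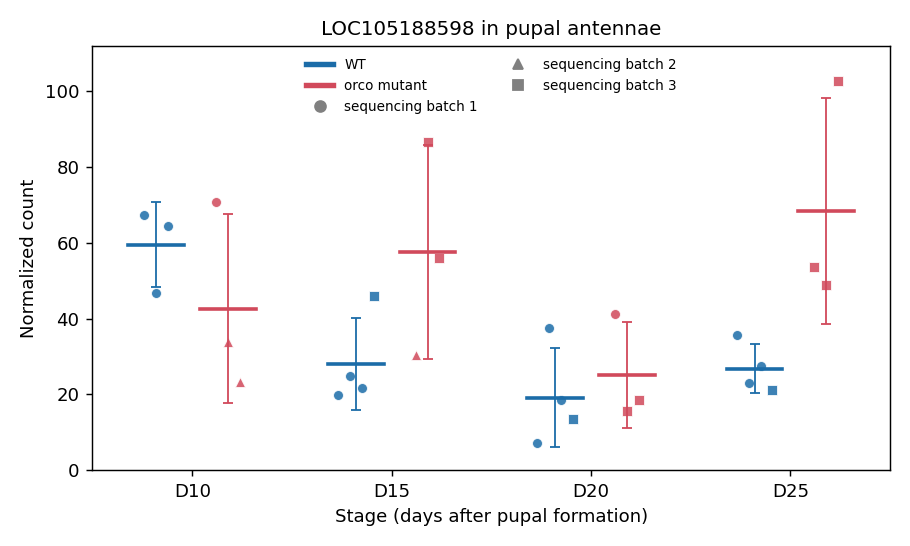
Normalized counts of LOC105188598 (vertical axis, linear from 0) at each stage (horizontal axis) in WT (blue) and orco mutant (red) antennae. Each point is a library, its shape gives the sequencing batch, and bars are means ± SD. At D25 the 3 mutant libraries lie between 49.0 and 103, above the 4 WT libraries at 21.1 to 35.6. At the other stages the genotypes overlap.

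Ordered by mean, the groups were mutant D25 with 68.5 ± 29.8 (SD, n = 3), WT D10 with 59.6 ± 11.3 (SD, n = 3), mutant D15 with 57.7 ± 28.2 (SD, n = 3), mutant D10 with 42.6 ± 25.0 (SD, n = 3), WT D15 with 28.1 ± 12.1 (SD, n = 4), WT D25 with 26.8 ± 6.46 (SD, n = 4), mutant D20 with 25.2 ± 13.98 (SD, n = 3), and WT D20 with 19.2 ± 13.1 (SD, n = 4). Every group overlapped its neighbor in this order. Of the 28 pairs of groups, 8 did not overlap. The same count was not made over all genes, so it does not set this row apart.

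Whether LOC105188598 differed between genotypes was asked at each stage. At D10 the log2 fold change of mutant over WT was −0.44 (95% interval, −1.59 to 0.71; adjusted p = 1). At D15 it was 1.02 (−0.04 to 2.08; adjusted p = 0.533). At D20 it was 0.36 (−0.74 to 1.46; adjusted p = 0.837). None of these passed the threshold, and at these stages the same test called 0.198%, 0.00902%, and 4.74% of all genes. Each of these intervals takes in both 0 and a log2 change of 1 in size, so the values leave room for a change of 2-fold.

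At D25, the mean of LOC105188598 in mutant antennae was 2.55 times that in WT. The log2 fold change was 1.35 (SE 0.53; 95% interval, 0.27 to 2.44), with an unadjusted p of 0.0172 and an adjusted p of 0.0759 by edgeR's quasi-likelihood test, so the difference did not pass. Left without any single D25 library, it ranged from 0.94 to 1.54 and did not pass either. This stage had many differences, with 16.5% of all genes called, 5.18% called higher in the mutant, and 14.5% higher in the mutant with no overlap of the genotypes. The fold change of LOC105188598 was larger than that of 96.3% of genes. DESeq2's test called the row, at 1.38 on the log2 scale (adjusted p = 0.0376), and edgeR did so when only reads of a single strand were counted, at 1.73 (adjusted p = 0.0307). The row was not called in the other alternative fits, the fit with batch as a term among them. With library size as the only scaling, the log2 fold change was 0.74 (adjusted p = 0.28), while the median of all genes moved to −0.63. On that scale, WT D25 libraries had 1.36, 0.792, 0.721, and 0.813 CPM of all counts on genes, mutant D25 libraries had 1.12, 1.09, and 2.41, and the genotypes overlapped.

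Within batches, LOC105188598 was higher in the mutant in each comparison that could be made, on 1 to 3 libraries per side and with no test. In batch 3 the log2 ratio of means at D25 was 1.70, with 3 mutant libraries against 1 WT library. It was 0.63 at D15 and 0.34 at D20, with 2 mutant libraries against 1 WT library. In batch 1 it was 0.25 at D10 and 0.97 at D20, with 1 mutant library against 3 WT libraries. At D10, where the pooled difference is negative, the low mutant libraries were the pair from batch 2, and with batch as a term the value turned to 0.32 (adjusted p = 0.909).

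Between successive stages, changes of LOC105188598 also fell short of the threshold. In WT, the log2 fold change was −1.11 from D10 to D15 (SE 0.51, edgeR adjusted p = 0.116), −0.58 from D15 to D20 (adjusted p = 0.538), and 0.47 from D20 to D25 (adjusted p = 0.792). In mutants, it was 0.35 from D10 to D15 (adjusted p = 0.695), −1.24 from D15 to D20 (SE 0.56, adjusted p = 0.128), and 1.46 from D20 to D25 (SE 0.56, adjusted p = 0.176). The test called 25.7%, 11.6%, and 0.00902% of all genes for the WT steps and 10.3%, 20.2%, and 3.36% for the mutant steps. Left without WT D15 replicate 4, the highest library of its group, the first WT step passed, with −1.47 and an adjusted p of 0.0483. The mutant step from D15 to D20 passed with batch as a term, with −1.63 and an adjusted p of 0.0365. With library size as the only scaling, the steps from D15 to D20 passed in WT (−1.42, adjusted p = 0.0175) and in mutants (−2.10, adjusted p = 0.00408), while the medians of all genes moved to −0.799 and −0.87. The differences of these steps between genotypes were 1.46, −0.66, and 0.99 on the log2 scale, with adjusted p-values of 0.938, 0.909, and 0.685, where 0.00902%, 2.58%, and 0.0541% of all genes were called.

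The adjoining row LOC112589396, which has no symbol in RefSeq, was called higher in the mutant at D25. Its normalized counts were 37.6, 24.4, 23.0, and 21.1 in WT D25 libraries and 130, 120, and 126 in mutant D25 libraries, so that mutant libraries lay together and far above WT. The log2 fold change was 2.23 (SE 0.53; 95% interval, 1.13 to 3.34; edgeR adjusted p = 0.0077). In the mutant D20 libraries it had stood at 14.9, 32.3, and 40.7, and the change from D20 to D25 was 2.12 (adjusted p = 0.0421), where 1.73% of all genes rose. In WT it fell by 1.57 on the log2 scale from D10 to D15 (adjusted p = 0.0294), from 63.3, 39.8, and 66.1 to 6.02, 22.3, 15.4, and 33.3, where 10.6% of all genes fell. With batch as a term, its D25 difference was 1.76 and fell short of the threshold (adjusted p = 0.062). Each of the 6 fits that left out a mutant D20 or D25 library lost the D20 to D25 call (adjusted p = 0.0899 to 0.141), as did library size only (1.339, adjusted p = 0.0653), no filter (adjusted p = 0.0528), and reads of a single strand (adjusted p = 0.0719). The WT step was lost with only D10 and D15 WT libraries (adjusted p = 0.105) and without WT D15 replicate 1 or 3 or without WT D10 replicate 1 or 3 (adjusted p up to 0.0923).

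LOC105188586, the row named nompC in RefSeq, had normalized counts of 322, 207, and 311 in WT D10 libraries. It had 38.7, 194, 101, and 256 in WT D15 libraries, 31.2, 15.8, 43.1, and 84.4 in WT D20 libraries, and 9.90, 35.9, 13.8, and 118 in WT D25 libraries. The WT libraries at the last stages were all below every WT D10 library. In each later WT group, the highest library was the one from batch 3.

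Mutant D10 libraries had normalized counts of LOC105188586 of 247, 250, and 171, and mutant D15 libraries had 122, 395, and 319. Mutant D20 libraries had 60.7, 133, and 172, and mutant D25 libraries had 214, 183, and 149. Every mutant D25 library was above every WT D25 library. The log2 fold change at D25 was 1.93 (SE 0.67; 95% interval, 0.53 to 3.32; edgeR adjusted p = 0.0522), just short of the threshold. DESeq2's test called it (1.96, adjusted p = 0.0226), and at D20 it was 1.43 (adjusted p = 0.324). Without WT D25 replicate 4, the batch 3 library, the D25 value was 3.09 (adjusted p = 0.003), and within batch 3 the log2 ratio of means was 0.62. The row next beyond it, LOC105188587 (Acsf2, an acyl-CoA synthetase family gene), also rose at D25, by 1.74 on the log2 scale (edgeR adjusted p = 0.0221). It fell short with library size as the only scaling (1.05, adjusted p = 0.137) and with batch as a term (adjusted p = 0.101). The call was also lost without WT D25 replicate 1 or 2 or mutant D25 replicate 2 or 3 (adjusted p up to 0.0684). On the other side of LOC105188598, LOC105188588 had means of 6.01 ± 4.70 normalized counts in WT D25 libraries (SD, n = 4) and 15.2 ± 4.02 in mutant D25 libraries (SD, n = 3). These rested on at most 17 counts per WT library and 19 per mutant library.

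**Figure D2:**
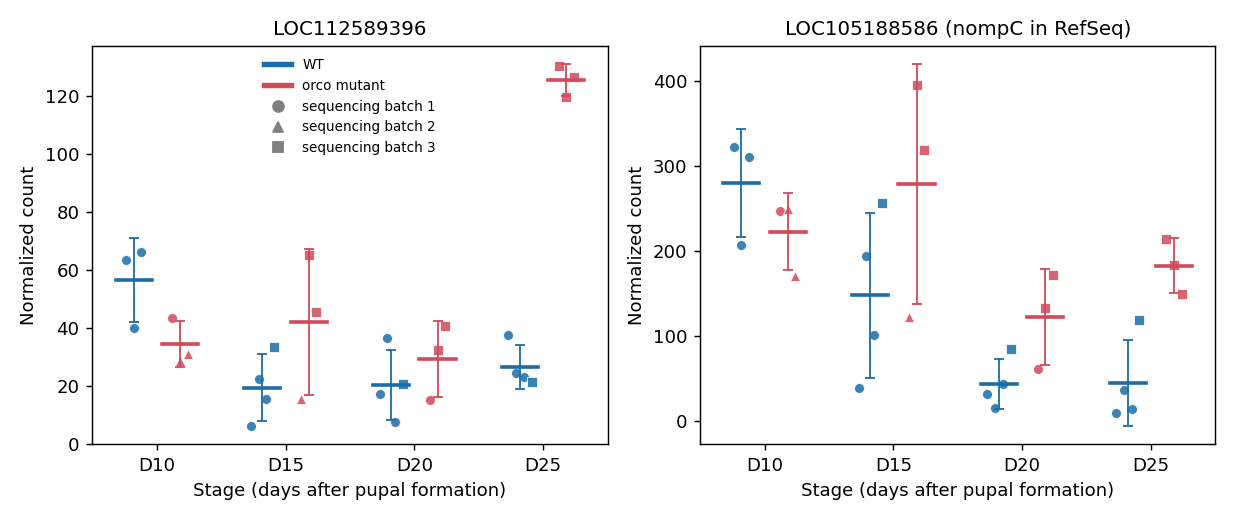
Normalized counts (vertical axes, linear) of the rows LOC112589396 and LOC105188586 near LOC105188598, at each stage (horizontal axes) in WT (blue) and orco mutant (red) libraries. Points are libraries, shapes give the sequencing batch, and bars are means ± SD. At D25 the mutant libraries of LOC112589396 lie at 120 to 130 against 21.1 to 37.6 in WT. Those of LOC105188586 lie at 149 to 214 against 9.90 to 118 in WT.

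Other genes of the mechanosensory pathway were taken from lists matched to RefSeq symbols, of which 4110 of the 14407 rows have 1. Of the mechanotransduction channels other than LOC105188598, 4 were tested. Only inactive (iav, LOC105182976), a TRP channel of chordotonal cilia in Drosophila, was called at D25. It had 48.0 ± 28.1 normalized counts in WT (SD, n = 4; 18.4 to 84.3) and 159 ± 34.9 in the mutant (SD, n = 3; 119 to 183), with no overlap. Its log2 fold change was 1.67 (SE 0.40; edgeR adjusted p = 0.00807), against 0.42 at D20 (adjusted p = 0.724). At D25 its partner in Drosophila, nanchung (nan, LOC105186329), had 0.66 (adjusted p = 0.298). The stretch-gated channel Piezo (LOC105191525) had 0.59 (adjusted p = 0.124), and Tmem63 (LOC105182265) had −0.05 (adjusted p = 0.896). The median of these 4 was 0.627, against −0.007 over all genes. With library size as the only scaling, iav fell short of the threshold (0.97, adjusted p = 0.0791), and it also did so when only D25 libraries were fitted (1.59, adjusted p = 0.0992).

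A broad list of genes of the dendritic cap and extracellular matrix was tested next, 9 in all. They were nompA, eys, prom, pio, dpy, qsm, tyn, neo, and dyl, and whether each acts at the sensory dendrite was not tested. At D25, 2 rose in the mutant, against 5.18% of all genes, and 0 fell, with a median of 1.16. nompA (LOC105189825), which forms the dendritic cap that joins the cilium to the cuticle in Drosophila, had 1056 ± 424 normalized counts in WT (SD, n = 4; 495 to 1523) and 3286 ± 387 in the mutant (SD, n = 3; 2881 to 3652). Its log2 fold change was 1.63 (SE 0.34; edgeR adjusted p = 0.00275), and it kept its call in all 16 alternative fits. dumpy (dpy, LOC105184603), a giant protein of the apical matrix, changed by 1.80 (SE 0.44; adjusted p = 0.0098). dpy was not called with batch as a term (1.18, adjusted p = 0.125) or with library size as the only scaling (1.16, adjusted p = 0.0597). At D20, 0 of the 9 passed by edgeR or DESeq2, and 0 had an unadjusted p under 0.05.

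**Figure D3:**
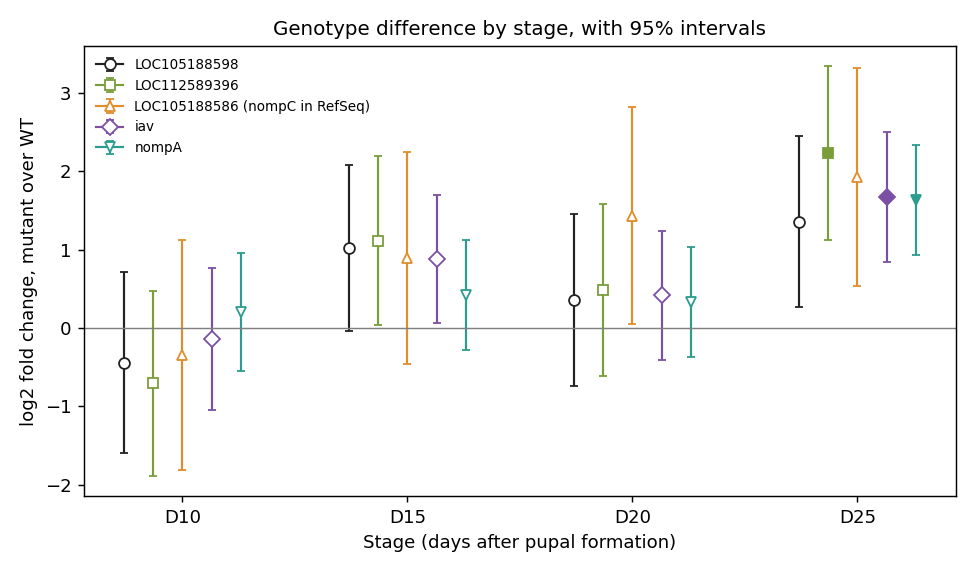
Log2 fold change of mutant over WT (vertical axis) with its 95% interval at each stage (horizontal axis) for LOC105188598, LOC112589396, LOC105188586, iav, and nompA. Filled symbols passed an adjusted p of 0.05 (edgeR) and open symbols did not. At D25 all 5 intervals lie above 0 and 3 symbols are filled, with LOC105188598 at 1.35 and open.

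Many genes of the cilium fell in the mutant. Olfactory neurons carry a cilium too, so these genes are not particular to mechanosensory cells. Of 27 genes of intraflagellar transport and the ciliary base, 13 fell in the mutant at D20 and 13 at D25, 0 rose at either stage by edgeR, by DESeq2, or at an unadjusted p under 0.05, and the median log2 fold change was −0.728 at both. Over all genes, 3.99% were called lower at D20 and 11.3% at D25. Among those called at D25, log2 fold changes ran from −0.69 in IFT52 (LOC105185366) to −2.45 in IFT80 (LOC105184010). IFT54 (LOC105183048), a subunit of the transport particle, had 723 ± 243 normalized counts in WT D25 antennae (SD, n = 4) and 185 ± 21.7 in the mutant (SD, n = 3), with a log2 fold change of −1.97 (edgeR adjusted p = 7.7e-06). BBS4 (LOC105182886), part of a complex that sorts membrane proteins into cilia, fell by 1.81 on the log2 scale (adjusted p = 2.46e-05). BBS8 (LOC105188395) of the same complex fell by 2.00 at D20 (adjusted p = 3.19e-05) and had 0.27 at D25 (adjusted p = 0.386). When reads of a single strand were counted, its D20 value was −0.85 and not called (adjusted p = 0.0665). The count of called genes at D25 was 22 with library size as the only scaling and at least 7 in the other fits.

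Of the genes of the motile axoneme, the dynein-driven machinery found in chordotonal and not in bristle or olfactory cilia of Drosophila, 7 were tested. Dnah3 (LOC105180607), a dynein heavy chain, rose at D25 by 1.02 on the log2 scale (edgeR adjusted p = 0.0305). It fell short of the threshold with library size as the only scaling (0.37, adjusted p = 0.508) and with batch as a term (0.66, adjusted p = 0.215). It also did so with reads of a single strand (0.95, adjusted p = 0.0593) and with only D25 libraries (0.96, adjusted p = 0.136). Fits without WT D25 replicate 1 or 3 or any single mutant D25 library lost the call too (adjusted p up to 0.102). Gas8 (LOC105188949) and Rsph3 (LOC105184641), of the axoneme's regulatory and radial spoke complexes, were lower at D20 and at D25, with −1.06 (adjusted p = 0.0135) and −2.26 (adjusted p = 0.000144) at D25. Of 8 transcription factors of sense organ development, including Rfx, Poxn, and eya, 0 were called between genotypes at D20 or D25 by edgeR, and their median was 0.824 at D25. At D25, an unadjusted p under 0.05 was reached by 1 in the direction of higher and 2 in that of lower, and DESeq2 called 1 lower, where 16.5% of all genes were called in either direction by edgeR. The count depends on the fit, with up to 4 called higher and up to 2 called lower at D25 in the alternatives. Among these, onecut (LOC105183587) passed with library size as the only scaling (−2.28, adjusted p = 0.0118) and with batch as a term (−2.13, adjusted p = 0.0354).

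Some of the odorant receptor genes that the study placed in mechanosensory neurons were lower in mutant antennae. That placement came from single nuclei of adult antennae, where the study reported that mechanosensory neurons survived in the mutant. Whole pupal antennae also hold other cells, so the values below do not say in which cells these genes changed. Of 7 such genes tested, 4 were called lower at D25, against 11.3% of all genes, and 0 higher, with a median of −2.68. At D20, 1 was called lower, against 3.99% of all genes. That gene, HsOr219, lost its D20 call when reads of a single strand were counted (−0.12, adjusted p = 0.919), with only D20 libraries (adjusted p = 0.0923), and without mutant D20 replicate 2 (adjusted p = 0.0719). HsOr219 had 37.7 ± 18.4 normalized counts in WT D25 antennae (SD, n = 4; 21.8 to 55.2) and 2.33 ± 1.59 in the mutant (SD, n = 3; 0.980 to 4.08), with a log2 fold change of −3.91 (edgeR adjusted p = 0.00159). When reads of a single strand were counted, HsOr219 had −0.29 at D25 (adjusted p = 0.577). HsOr34, HsOr35, and HsOr36 changed by −3.93, −3.52, and −2.68, with adjusted p-values of 0.00983, 0.00411, and 0.0441. HsOr34 fell short without mutant D25 replicate 2 (adjusted p = 0.055), and HsOr36 without WT D25 replicate 1, 2, or 3 or mutant D25 replicate 2 or 3 (adjusted p up to 0.156). HsOr36 was also lost with no filter (adjusted p = 0.0553) and with only D25 libraries (adjusted p = 0.0723). Mutant D25 libraries held only 1 to 12 reads of any of these 4 genes. Or genes are similar in sequence, and reads with more than 1 place in the genome were not counted, so their values are uncertain.

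The Ir co-receptors, which pair with tuning ionotropic receptors, were mixed. In single nuclei of adult antennae, the study found the HsIr25a genes in nompC-positive neurons, besides those with ionotropic or gustatory receptors. It described HsIr76b similarly, apart from a cluster of orco-positive cells that also held HsIr8a and a tuning ionotropic receptor. It found HsIr8a in some olfactory receptor neurons as well. Neurons with orco, a tuning ionotropic receptor, and an Ir co-receptor survived in the mutant, by the study's report. In which cells the values below arose was not tested. HsIr8a rose at D25 by 1.78 on the log2 scale (SE 0.36; edgeR adjusted p = 0.00209), with 121 ± 51.7 normalized counts in WT (SD, n = 4) and 423 ± 36.0 in the mutant (SD, n = 3). HsIr76b was lower in the mutant at D25 by 1.73 (SE 0.37; adjusted p = 0.00364), and its mean was lower at every earlier stage too. Its mean normalized counts in the mutant were 47.7 at D10 (WT, 182.7), 52.0 at D15 (WT, 212.5), and 102.8 at D20 (WT, 401.9). HsIr76b was also called lower at D20 (−1.99), and it kept that call in all 16 alternative fits. In the main fit no Ir co-receptor was called at D10 or D15. Alternative fits and fits without 1 library called up to 1 lower at each of these stages. HsIr25a.1 and HsIr25a.2 had 1.27 and 1.56, with adjusted p-values of 0.288 and 0.0988.

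**Figure D4:**
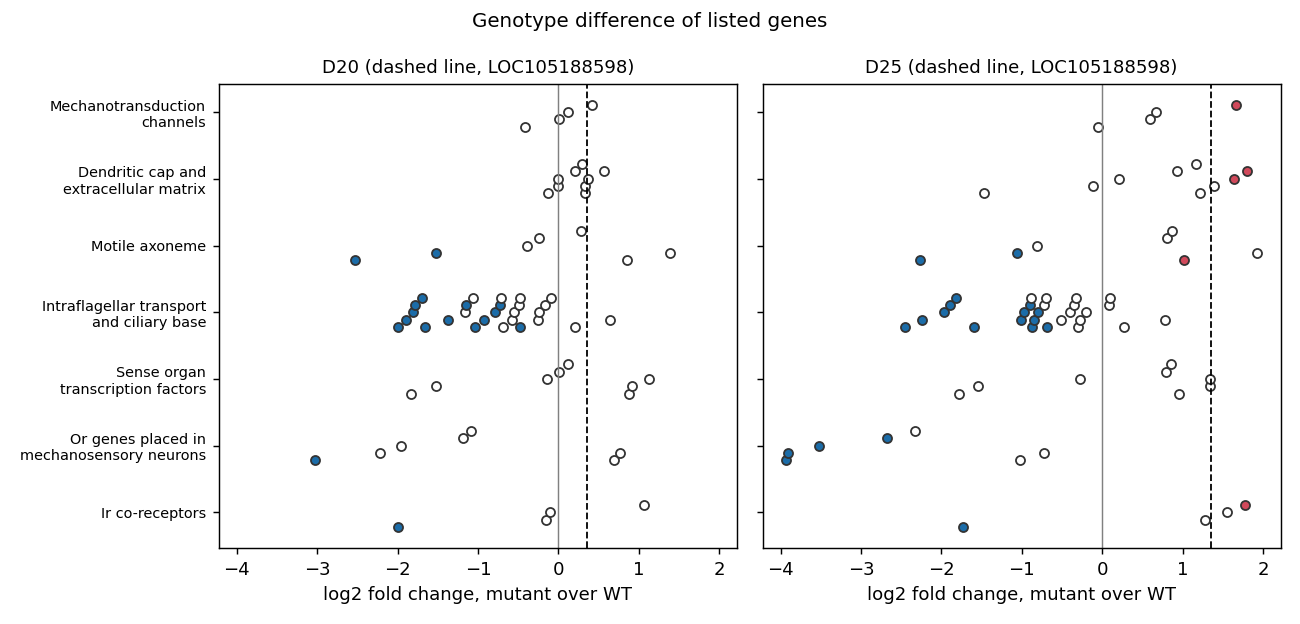
Log2 fold change of mutant over WT (horizontal axes) at D20 and D25 for the tested genes of each list (rows), other than LOC105188598, whose value is the dashed line (0.36 at D20 and 1.35 at D25). Each point is a gene, red if called higher, blue if called lower, and open if not called (edgeR, adjusted p of 0.05). Genes of intraflagellar transport and the ciliary base, with 13 of 27 called lower at each stage, lie to the left of the line, except 1 that was not called at D20.

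Tissue makeup can move any of these values, since in whole antennae fewer cells of a type and less RNA per cell cannot be told apart. LOC105188598 was therefore set against marker genes of the same library, which does not depend on the scaling between libraries. The ratio is the log2 count of LOC105188598 less the mean log2 count of the markers, with 0.5 added to each count. Neuron markers were nSyb (LOC105189534), fne, Syt1, and onecut. Nonneuronal markers were repo of glia, grh of epithelium, and sv of support cells.

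Relative to neuron markers, LOC105188598 was higher in late mutant antennae. Ratios were −7.87, −5.33, −7.46, and −7.68 in WT D20 libraries and −6.23, −6.61, −4.98, and −7.51 in WT D25 libraries. They were −3.81, −6.42, and −6.11 in mutant D20 libraries and −4.75, −4.96, and −3.42 in mutant D25 libraries. Mutant D25 libraries were all above WT D25 libraries, by a narrow gap to WT D25 replicate 3, while the D20 groups overlapped. The mean difference over D20 and D25 was 1.80 (exact permutation test within stages, two-sided, p = 0.0122, adjusted p = 0.049 over 4 such tests). This call was at the edge of the threshold. In the 14 tests that each left out 1 library, the difference was 1.39 to 2.09 with adjusted p-values of 0.0114 to 0.122, and the call held in 3, those without WT D20 replicate 2, WT D25 replicate 3, or mutant D20 replicate 2. It was lost without any of the other 11 libraries. The markers themselves fell unevenly, since nSyb, a synaptic vesicle protein of neurons, was called lower at D25 with −1.52 (edgeR adjusted p = 0.000102). fne (LOC105190174), Syt1 (LOC105183410), and onecut (LOC105183587) had −0.44, −0.13, and −1.55, with adjusted p-values of 0.534, 0.794, and 0.0891.

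At D10 and D15, the ratio to neuron markers differed by 0.162 between genotypes (exact permutation p = 0.766, adjusted p = 0.766). Relative to the nonneuronal markers, the difference was −0.31 at the late stages and −0.221 at the early ones, with an adjusted p of 0.766 at each. Whether the late and early differences differ was not tested. With LOC105188586 in place of LOC105188598, a choice made after the data were seen, late differences were 3.03 against neuron markers and 0.92 against nonneuronal markers, each with an adjusted p of 0.00163 (exact permutation, on the smallest p the libraries allow). The result relative to nonneuronal cells therefore depends on which row is taken as nompC.

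**Figure D5:**
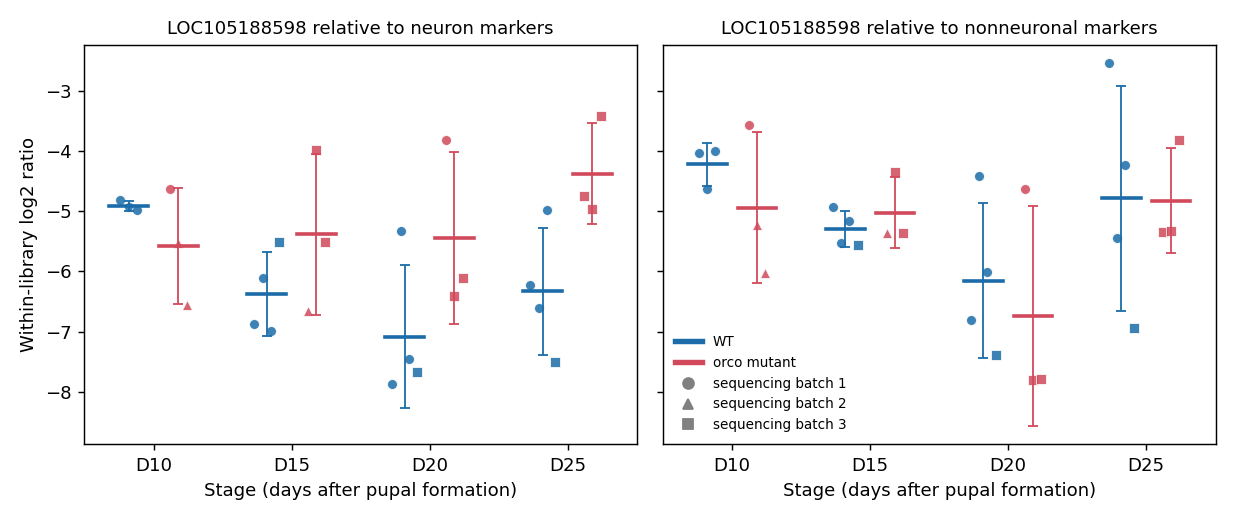
Within-library log2 ratio of LOC105188598 to 4 neuron markers (left) and to 3 nonneuronal markers (right) at each stage, in WT (blue) and orco mutant (red) libraries. Points are libraries, shapes give the sequencing batch, and bars are means ± SD. On the left, the mutant D25 libraries lie at −4.96 to −3.42 and the WT D25 libraries at −7.51 to −4.98.

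RNA of the muscle marker was higher in mutant antennae at the same stage. In single nuclei of adult antennae, the study reported fewer muscle cells in the mutant, at another age and by another measure. Mhc (LOC105191850), the muscle myosin, had 299 to 5904 normalized counts in WT D25 libraries and 16790 to 19770 in mutant D25 libraries, with a log2 fold change of 2.71 (edgeR adjusted p = 0.0253). It was not called with batch as a term (2.70, adjusted p = 0.0972) or with only D25 libraries (2.64, adjusted p = 0.115). Nor was it called without WT D25 replicate 1 or 3 or any single mutant D25 library (adjusted p up to 0.0799). The ammonia transporter Rh50 (LOC105188823), a marker of another sensory neuron type, had 1.02 (adjusted p = 0.443). Their part in the D25 values of LOC105188598 was not tested.

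The genes with the pattern most like LOC105188598 were sought by Pearson correlation of log2 CPM over the 27 libraries, which share scaling, depth, and batch. The nearest were LOC105184227 with 0.778, LOC105188387 (RSG7) with 0.759, and LOC105187452 with 0.744, and the tenth had 0.705. The adjoining row LOC112589396 was in place 9 with 0.707, while LOC105188586 had 0.493. Over the 8 group means, the nearest were LOC105181881 with 0.974, wapl with 0.948, and Gle1 with 0.942. The order was not firm, since 5 of the first 10 genes were also among the first 10 by rank correlation and 1 was among the first 10 after group means were removed.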

How the data were processed

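Antennal RNA of 27 libraries was compared across 8 groups of genotype and stage, as given by the labels. For each library, the authors mapped reads with STAR 2.6.1d and deposited raw counts of reads per gene, in columns for unstranded and each strand. Reads overlapping more than 1 gene or mapping to more than 1 place are not in them. The authors also deposited normalized signal, the counts divided by DESeq2 1.34.0 size factors, and size factors recomputed here gave these values to within 4.1e-08.

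Unstranded counts of 11086 genes with a mean of at least 10 per library were fitted with edgeR 4.0.16 (R 4.3.3, limma 3.58.1), TMM scaling, and two-sided quasi-likelihood tests in 1 model with 8 groups. P-values were Benjamini-Hochberg adjusted within a contrast, with a threshold of 0.05. Library totals set the precision, with 3454610 to 52275933 counts on genes. Counting intervals do not cover variation between samples, since PCR copies were not marked by molecular identifiers. Within-library ratios were tested by exact permutation within stages.

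Alternatives were DESeq2's size factors and DESeq2 1.42.0's test, library size only, no filter, a term for sequencing batch or for replicate number, only the libraries compared, single-strand counts, a pseudocount of 5, the median of the markers, batch 3 only, each library left out, and, added after seeing the data, LOC105188586 as nompC. The edgeR step was tested on simulated counts. The genes named are LOC105188598, its neighbors on the assembly, list members past the threshold or needed as markers, and the genes with the most similar pattern, of which 10 over libraries and 5 over group means were ranked and not all are printed. The members and lists were chosen with earlier results of these data known. Sequences were not used here.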

Additional observations from a re-analysis of the deposited data

Results flagged for a closer look

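The ratio of LOC105188598 to the neuron markers set a library apart in WT D20. Replicate 2 had −5.33 against −7.87 to −7.46 in the other WT D20 libraries, and its gap to the nearest was 0.84 of the range of the group, above the limit for 4 samples. Of the 15 groups examined in this way, 1 was singled out, and chance singles out about 1 in 20. This library had 31 counts of LOC105188598, against 5 to 23 in the others, and its value narrows the late difference between genotypes.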

How the results depend on the processing

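Most values kept their direction and their side of the threshold under the alternatives. Among comparisons of LOC105188598 with edgeR, library size only took the WT and mutant steps from D15 to D20 past the threshold, with −1.42 and −2.10, under a shift of the median of all genes to −0.799 and −0.87. Other results that passed were the mutant step from D15 to D20 with sequencing batch as a term (−1.63) and the D25 difference with DESeq2's test (1.38) and with reads of a single strand (1.73). The D10 difference turned to 0.32 with batch as a term. The late neuron ratio was lost with a pseudocount of 5 (1.55) and the median of the markers (1.65). With batch 3 libraries only the late neuron difference was 2.28, and these libraries were too few for any difference to pass. Nonneuronal ratios turned to 0.86 late and 0.71 early with batch 3 only. Batch 3 held no D10 library, so that early value came from D15 alone. With LOC105188586 as nompC, chosen after seeing the data, the interaction from D15 to D20 was 0.54 and the late nonneuronal ratio 0.92. The causes were not tested.

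Over fits without 1 library, the difference at D20 ranged from −0.21 to 0.92, at D25 from 0.94 to 1.54, the WT step from D10 to D15 from −1.47 to −0.97, and the mutant step from −0.088 to 0.99. The neuron ratio ranged from 1.39 to 2.09 late and from −0.19 to 0.48 early, the nonneuronal ratio from −0.84 to 0.066 late and from −0.57 to 0.0501 early, and Syt1 at D25 from −0.36 to 0.12.

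Replicate numbers did not pair the libraries, since correlations of deviations between WT and mutant libraries of the same number ran from −0.409 to 0.499. With a replicate block, LOC105188598 had −0.46, 1.06, 0.36, and 1.40 at D10, D15, D20, and D25, and no call of its genotype or stage contrasts changed. The block did change calls of LOC105188586, which passed at D20 (1.98, adjusted p = 0.0211) and D25 (2.93, adjusted p = 0.0012). It took sense organ transcription factors called higher at D25 from 0 to 4, and genes of the dendritic cap and extracellular matrix list from 2 to 4. Genes called between genotypes at D25 numbered 1828, and 931 with batch as a term, 3604 with the block, and 2572 by DESeq2. Genes of intraflagellar transport and the ciliary base called lower at D25 numbered 13, and 22 with library size only and 7 with only D25 libraries. Depth limits LOC105188598, with as few as 5 counts in a library, as does a spread between replicates beyond counting error.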
